A study of Mus musculus with 6 samples.

Results

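The genes for 10 factors secreted by skeletal muscle, Ostn, Fndc5, Il15, Metrnl, Apln, Lif, Il6, Vegfb, Fgf21 and Angptl4, were followed through late fetal and postnatal growth of mouse gastrocnemius muscle. They were chosen by gene symbol and make up 10 of the 23367 entries of the gene table. All 10 passed the filter on low counts that left 16882 genes for testing. Wild type FVB mice gave gastrocnemius muscle for polyA RNA-seq at embryonic day 18.5 (E18.5), postnatal day 2 (PN2), PN14, PN28 and in the adult at 22 weeks. PN14 had 2 libraries and every other stage had 1, so that there were 6 libraries in all. The mice were male, except that E18.5 tissue came from males and females, and tissue of several animals was pooled at E18.5 and at PN2. Pooling and, at E18.5, sex therefore cannot be told apart from stage. Lane also cannot be told apart from stage, since by the headers no lane held more than 1 library.

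Myokines are proteins that muscle releases to act on the muscle itself or on other organs. Osteocrin (Ostn) binds the natriuretic peptide clearance receptor and is made by bone and muscle. Apelin (Apln) and vascular endothelial growth factor B (Vegfb) act on blood vessels, interleukin-15 (Il15) on lymphocytes and muscle metabolism, and leukemia inhibitory factor (Lif) and interleukin-6 (Il6) on cells that carry the shared signalling subunit gp130. Angiopoietin-like 4 (Angptl4) inhibits lipoprotein lipase and is induced by fatty acids through the PPAR nuclear receptors. Fndc5 encodes the precursor of irisin, Metrnl encodes meteorin-like, and Fgf21 is a hormone induced by fasting and by the ATF4 stress response.

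The annotated genes lie on 9 chromosomes of the mm9 assembly, with Lif and Metrnl on chromosome 11. Of the members with the clearest changes, Ostn spans chr16:27307575-27351298, Apln chrX:45378323-45388030 and Vegfb chr19:7056963-7062141. No exonic base of any of the 10 genes was shared with another annotated gene. Promoter sequence from RefSeq (assembly GRCm38.p6) was found for 7 of the 10 genes. It is printed for Vegfb, which rose, for Apln, which fell, and for Fgf21, the member tied to the stress response. Each run is the 250 bases before the transcription start, 5′ to 3′ on the gene's strand, and lies at chr19:6987652-6987901 (minus strand) for Vegfb, chrX:48034854-48035103 (minus strand) for Apln and chr7:45615491-45615740 (minus strand) for Fgf21. Capitals mark matches, on either strand, to ACGTG (the core bound by hypoxia-inducible factors), to CANNTG (the E-box) and to TGATGNAA (the ATF4 and C/EBP composite element). CACGTG counts both as an E-box and as ACGTG.
Vegfb: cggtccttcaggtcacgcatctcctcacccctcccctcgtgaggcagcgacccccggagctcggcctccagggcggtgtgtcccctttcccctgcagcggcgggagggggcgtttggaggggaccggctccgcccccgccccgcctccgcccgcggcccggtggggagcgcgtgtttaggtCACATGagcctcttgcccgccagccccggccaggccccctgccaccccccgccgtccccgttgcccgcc
Apln: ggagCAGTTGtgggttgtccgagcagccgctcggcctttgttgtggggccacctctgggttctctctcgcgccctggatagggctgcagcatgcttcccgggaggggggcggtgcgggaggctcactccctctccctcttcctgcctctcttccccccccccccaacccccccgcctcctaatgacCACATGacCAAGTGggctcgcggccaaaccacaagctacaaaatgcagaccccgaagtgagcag
Fgf21: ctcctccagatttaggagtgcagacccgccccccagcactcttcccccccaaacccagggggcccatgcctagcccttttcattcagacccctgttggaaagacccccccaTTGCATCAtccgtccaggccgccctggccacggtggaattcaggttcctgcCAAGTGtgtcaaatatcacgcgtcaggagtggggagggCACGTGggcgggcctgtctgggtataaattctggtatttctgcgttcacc

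The Vegfb window was 76.4% G and C and held 1 E-box, CACATG, starting 69 bases before the start. The Apln window held 3 E-boxes, the nearest to the start being CACATG and CAAGTG, and no ACGTG. The Fgf21 window held the composite element as TTGCATCA, 139 to 132 bases before the start, and CACGTG at 50 to 45 bases before it. Of 32851 promoter windows of the same length, 3.45% held TGATGNAA, 16.6% ACGTG and 66.2% an E-box. These matches describe letters only, and no binding was measured.

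The libraries held 125402932 to 157868359 fragments counted on genes, and 3 counts, taken as the floor, were 0.0190 to 0.0239 CPM (counts relative to the library total). Muscle itself filled much of the later libraries, since the share of counts in the top 20 genes was 16.0% at E18.5 against 36.9% in adult muscle. Because of this, the scaling between libraries matters. Main values used TMM scaling (trimmed mean of M-values), under which the median log2 change of all genes stayed near 0. With library size alone the median gene moved by -0.66 on the log2 scale from PN2 to PN14, by -0.92 from PN2 to PN28, by -0.79 from the perinatal to the later libraries and by -1.08 from E18.5 to adult, so changes are relative to the bulk of genes. A gene was called when edgeR's quasi-likelihood test gave a Benjamini-Hochberg adjusted p under 0.05 and the change was at least 2-fold. Only the PN14 pair gives a spread, and it was assumed to hold at every other stage. The labelled tissue was plain in every library, as 6 myofibre markers summed to 31389 FPKM (fragments per kilobase of transcript, scaled to depth) at E18.5 and 104897 FPKM in the adult. In bulk tissue, fewer cells of a type and less RNA per cell cannot be told apart.

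PN14 replicate 2 stood apart from replicate 1 in nerve and fat-metabolism genes. The 4 Schwann cell markers summed to 501 TMM-scaled CPM in replicate 1 and 1665 in replicate 2. The sum was 67.6 at E18.5, and PN2 (486), PN28 (450) and the adult (427) lay close to replicate 1. Over 13015 genes of at least 1 CPM, the median absolute log2 difference between the pair was 0.186, and 370 genes (2.84%) differed by more than 2-fold. Among the members Angptl4 differed most, 5.48-fold, and only 8 of those genes had a larger excess in replicate 2. Apln was 1.77-fold and Metrnl 1.31-fold higher in replicate 2, and the other members of at least 1 CPM differed by less.

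**Figure D1:**
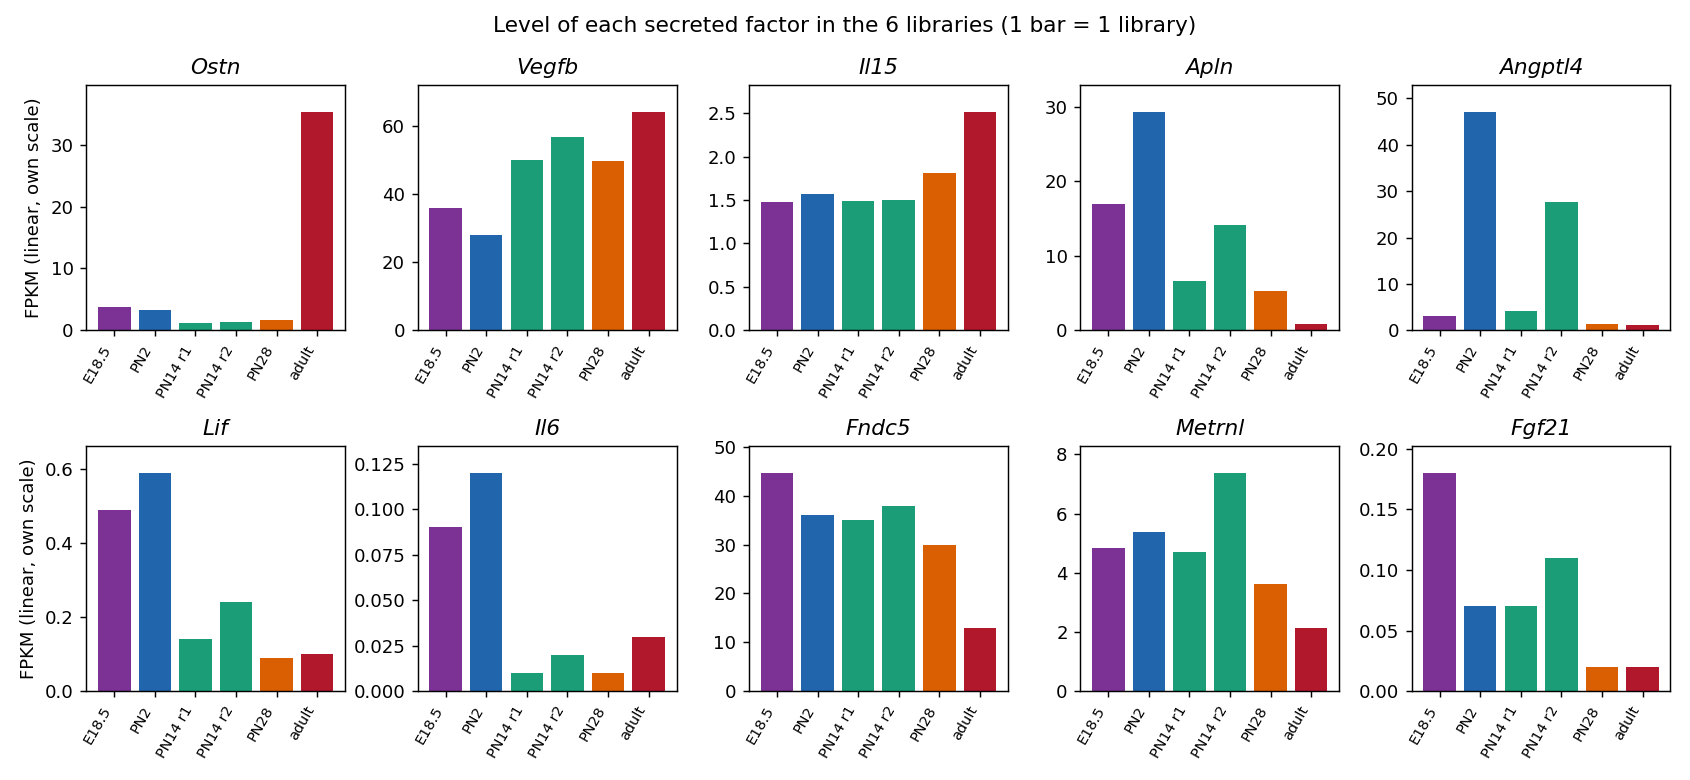
FPKM (y, linear, each panel on its own scale) of the 10 secreted factors in each library (x), with 1 bar per library and both PN14 libraries in green. Ostn stands out in the adult at 35.24 FPKM, Angptl4 is high at PN2 and in PN14 replicate 2, and Apln falls to 0.82 FPKM in the adult.

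The members spanned a wide range of abundance. In the adult Vegfb (64.07 FPKM), Ostn (35.24 FPKM) and Fndc5 (13.02 FPKM) were the highest, and Il6 (0.03 FPKM) and Fgf21 (0.02 FPKM) the lowest. At E18.5 Fndc5 (44.69 FPKM) and Vegfb (35.85 FPKM) led, with Apln (16.97 FPKM) next. The place of Ostn among expressed genes moved from the 47.5th percentile at E18.5 to the 91.0th in the adult, and that of Apln from the 78.0th to the 35.3rd.

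Few members passed the test between neighbouring stages. From E18.5 to PN2, 0 of 10 members were called by edgeR's quasi-likelihood test, against 0.0296% of all genes. At an unadjusted p under 0.05 there was 1, and DESeq2 called 0 while edgeR's exact test called 1. From PN2 to PN14 1 rose and 0 fell, against 23.0% of all genes. From PN14 to PN28 0 were called, against 0.0178%, with 2 at an unadjusted p under 0.05 and 0 by DESeq2 and by the exact test. From PN28 to adult 1 rose, against 0.521%. Across the whole course, E18.5 to adult, 3 rose and 1 fell, against 44.9% of all genes, and from PN2 to PN28 1 rose and 3 fell, against 27.0%. Between the perinatal (E18.5 and PN2) and the later libraries 1 rose and 1 fell, against 31.1% of 16373 genes. The members' share was under that of all genes from PN2 to PN14 and between perinatal and later libraries, near it from E18.5 to adult, and above it, at 4 of 10, from PN2 to PN28. Library size alone turned the balance of directions. It gave 0 risen and 5 fallen members from PN2 to PN14, against 34.5% of all genes called, and 1 risen and 6 fallen from E18.5 to adult, against 53.6%. From PN2 to PN28 it gave 0 risen and 4 fallen (42.4% of all genes), and from perinatal to later 0 risen and 2 fallen (43.3%). Comparisons that use the same library share that library's error.

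**Figure D2:**
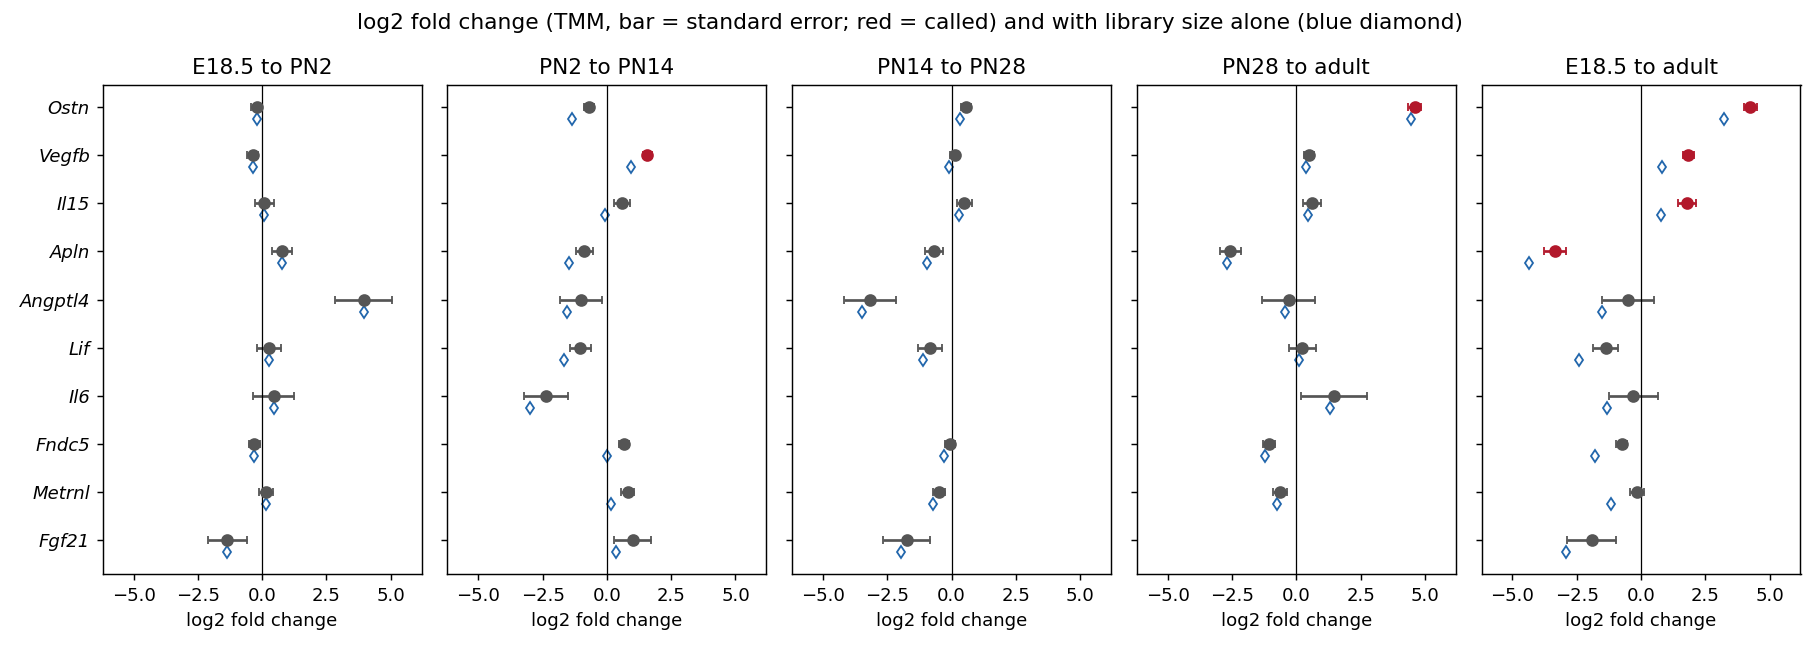
log2 fold change (x) of each member (y) over 4 intervals and from E18.5 to adult, as TMM-scaled estimates with standard errors (red where called, grey otherwise) and with library size alone (blue diamonds). No point is drawn where both stages were at or under 3 counts. Ostn rose by 4.60 from PN28 to adult under TMM, and most diamonds lie to the left of their TMM values after PN2.

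Osteocrin was far higher in the adult than at any younger stage. Ostn had 3.78 FPKM at E18.5, 3.25 at PN2, 1.12 and 1.41 at PN14, 1.60 at PN28 and 35.24 in adult muscle, where 6111 fragments were counted against 289 at PN28. The adult library alone was high, and the younger libraries fell between 1.12 and 3.78 FPKM. From PN28 to adult Ostn rose 24.2-fold (log2 4.60, SE 0.26, Benjamini-Hochberg adjusted p = 0.0120 by edgeR's quasi-likelihood test), and library size alone gave a log2 change of 4.46. From E18.5 to adult it rose by 4.25 on the log2 scale (SE 0.25, adjusted p = 0.00113, edgeR). Before that, from PN2 to PN14, its value was -0.71 (SE 0.19), under the 2-fold limit although the adjusted p was 0.0401 by edgeR, and with library size alone it was called at -1.36. The adult value rests on 1 library. Bone is another known source of osteocrin, and the summed level of 8 bone and cartilage markers, like Ostn, was lower at PN14 than before. In the adult, where Ostn was highest, the sum was lowest. It was 306 TMM-scaled CPM at E18.5, of which Col2a1 made up 204, 139 at PN2, 36.7 to 48.4 from PN14 to PN28 and 17.1 in adult muscle. Ibsp (bone sialoprotein) was at 0 FPKM from PN14 on. From PN2 to PN14 6 of the 8 markers fell and 1, Alpl, rose, against 23.0% of all genes called. Alpl had 2.67 FPKM at PN2, 5.56 and 3.40 at PN14 and 3.78 in the adult, and library size alone did not call its rise. The part of bone in the Ostn values was not tested.

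The natriuretic peptide receptors did not pass the test in any comparison under TMM. Npr3, the clearance receptor to which osteocrin binds, had 6.52 FPKM at E18.5, 7.21 at PN2, 4.30 and 5.96 at PN14, 2.47 at PN28 and 1.68 in adult muscle, its lowest library being the one in which Ostn was highest. With library size alone Npr3 fell by 1.96 from E18.5 to adult and by 1.55 from PN2 to PN28. Npr2, the receptor of C-type natriuretic peptide, ranged from 11.73 to 19.54 FPKM and Npr1, that of the atrial and brain peptides, from 4.48 to 10.58 FPKM. Nppc, which encodes C-type natriuretic peptide, fell by 1.66 on the log2 scale from E18.5 to adult (SE 0.42, adjusted p = 0.0194, edgeR), from 2.19 to 0.34 FPKM.

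Vegfb was abundant at every stage and higher after the second postnatal week. It had 35.85 FPKM at E18.5, 28.10 at PN2, 50.14 and 56.69 at PN14, 49.64 at PN28 and 64.07 in adult muscle. The 4 later libraries were all above the 2 perinatal ones. From PN2 to PN14 Vegfb rose 2.98-fold under TMM (log2 1.58, SE 0.19, adjusted p = 0.00585 by edgeR's quasi-likelihood test), and it was the only member called in that interval. From E18.5 to adult it rose by 1.83 (SE 0.21, adjusted p = 0.00188, edgeR) and between perinatal and later libraries by 1.59 (SE 0.25, adjusted p = 0.00519, edgeR). With library size alone the change from PN2 to PN14 was 0.92, under the 2-fold limit, and Vegfb was called in no comparison. Under TMM the perinatal to later rise was called whichever library was left out.

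Flt1, the receptor of Vegfb, was called too under TMM but changed little in FPKM, which carries no scaling between libraries beyond depth. It had 6.18 FPKM at E18.5, 4.56 at PN2, 6.26 and 6.62 at PN14, 6.54 at PN28 and 6.09 in adult muscle, and rose by 1.16 from PN2 to PN14 on the TMM log2 scale (SE 0.19, adjusted p = 0.0107, edgeR). Library size alone gave 0.50 for that step and called Flt1 in no comparison. Nrp1, a co-receptor, went from 25.65 FPKM at E18.5 to 8.06 in the adult and was not called under TMM. Vegfa, the main angiogenic member of the family, rose by 1.68 from PN2 to PN14 (SE 0.23, adjusted p = 0.00704, edgeR), from 24.84 FPKM to 46.17 and 55.74. Pgf, the placental growth factor, which also binds Flt1, fell by 1.07 (SE 0.27, adjusted p = 0.0324, edgeR), from 5.44 FPKM to 1.34 and 1.98. Both kept their calls with library size alone.

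Apelin went the other way. Apln had 16.97 FPKM at E18.5, 29.30 at PN2, 6.68 and 14.17 at PN14, 5.35 at PN28 and 0.82 in adult muscle, a 35.7-fold span in FPKM. The adult library was the lowest by far. Both PN14 libraries lay between PN28 and PN2, and they differed 1.77-fold on the TMM scale. From E18.5 to adult Apln fell 10.1-fold (log2 -3.34, SE 0.43, adjusted p = 0.00238 by edgeR's quasi-likelihood test), and from PN2 to PN28 it fell by 1.56 (SE 0.40, adjusted p = 0.0319, edgeR). Most of that lay between PN28 and adult, where the value was -2.56 (SE 0.42, adjusted p = 0.0628, edgeR), which missed the threshold. The Wald test of DESeq2 and the exact test of edgeR called Apln in that interval, as did library size alone and the fit with no filter on low counts.

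Its receptor gene Aplnr, a marker of endothelial cells, had 17.41 FPKM at E18.5, 18.09 at PN2, 20.80 and 48.51 at PN14, 16.40 at PN28 and 4.54 in adult muscle. Ligand and receptor were thus both lowest in the adult, and the receptor was highest in PN14 replicate 2. Aplnr rose from PN2 to PN14 (log2 1.55, SE 0.42, adjusted p = 0.0378, edgeR), a call that library size alone did not make. The summed level of the 6 endothelial markers moved with it, from 462 TMM-scaled CPM at PN2 to 741 and 930 at PN14, 581 at PN28 and 352 in adult muscle. None of the 6 was at 0 in any library. Their part in the values of Apln and Aplnr was not tested. Apela (listed as Gm10664), the other known ligand of the receptor, was listed at 0.23 FPKM at E18.5 and at 0.01 or less from PN14 on.

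**Figure D3:**
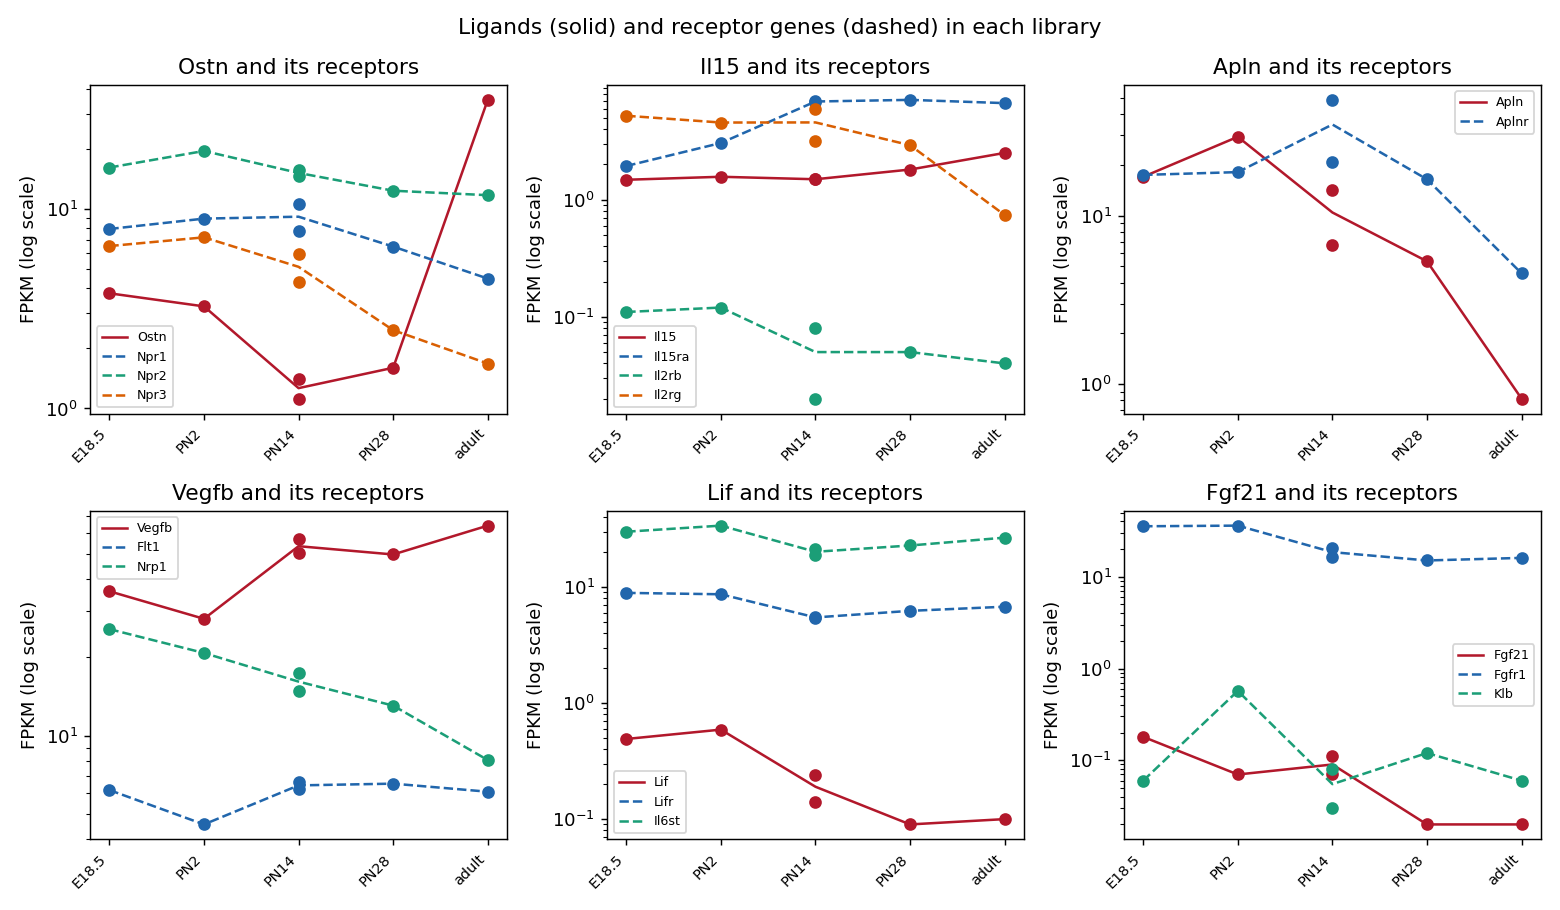
FPKM (y, log scale) of 6 ligands (solid red) and their receptor genes (dashed) by stage (x), with 1 point per library and lines through the stage means. Ostn crosses above its receptors in the adult, Apln and Aplnr are both lowest in the adult, and Il15ra lies above Il15 in every library.

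Interleukin-15 increased slowly. Il15 had 1.48 FPKM at E18.5, 1.57 at PN2, 1.49 and 1.50 at PN14, 1.81 at PN28 and 2.51 in adult muscle. In FPKM the first 4 libraries were alike and the adult was the highest. It rose by 1.79 from E18.5 to adult under TMM (SE 0.37, adjusted p = 0.00936 by edgeR's quasi-likelihood test), whereas library size alone gave 0.76 and no call. The receptor chain Il15ra, which presents the cytokine to other cells, moved more and earlier. It had 1.94 FPKM at E18.5, 3.05 at PN2, 6.98 and 6.81 at PN14, 7.12 at PN28 and 6.68 in adult muscle, and rose by 1.87 from PN2 to PN14 (SE 0.25, adjusted p = 0.00706, edgeR). Library size alone also called that rise. The signalling chain Il2rb stayed at or under 0.12 FPKM. The common chain Il2rg fell by 1.79 from E18.5 to adult (SE 0.40, adjusted p = 0.0126, edgeR), from 5.21 to 0.74 FPKM, again under both scalings. Il2 and Il21, whose products also use the common chain, were listed at 0.01 FPKM or less.

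Angptl4 was the most variable member within a stage. It had 3.03 FPKM at E18.5, 47.02 at PN2, 4.18 and 27.56 at PN14, 1.41 at PN28 and 1.05 in adult muscle. PN2 and PN14 replicate 2 were high and the other 4 libraries low, so that 1 PN14 library lay with each. The value from E18.5 to PN2 was 15.5-fold (log2 3.96, SE 1.10) but was not called, with an adjusted p of 0.488 by edgeR's quasi-likelihood test, while library size alone and edgeR's exact test called it. From PN2 to PN28 it fell by 4.17 (SE 1.12, adjusted p = 0.0370, edgeR), a call that DESeq2's Wald test did not make. The difference between the PN14 libraries, 2.45 on the log2 scale, exceeded that between PN14 and PN2.

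Genes that PPARs induce were uneven in the same libraries. Pdk4, the kinase that shuts pyruvate out of the citric acid cycle, had 14.59 FPKM at E18.5, 97.17 at PN2, 131.95 and 360.86 at PN14, 27.92 at PN28 and 37.83 in adult muscle. Ucp3, a mitochondrial carrier, had 2.91, 26.93, 42.88, 76.97, 22.50 and 33.73 FPKM in the same order, and both were highest in PN14 replicate 2. Acot1, an acyl-CoA thioesterase, was like Angptl4 highest at PN2 (18.74 FPKM), with 4.26 at E18.5, 0.99 and 2.83 at PN14, 0.79 at PN28 and 0.57 in adult muscle. Fabp3, the muscle fatty acid binding protein, did not share the split, with 1159.35 and 1153.82 FPKM at PN14. Of 9 PPAR target genes, 3 rose (Pdk4, Ucp3 and Fabp3) and 1 fell (Acot1) from PN2 to PN14, with a median log2 change of 0.50 against -0.01 over all genes, of which 23.0% were called. From E18.5 to PN2 0 of 9 were called by edgeR's quasi-likelihood test, against 0.0296% of all genes, with a median of 2.14 against -0.01. With library size alone 5 rose, against 1.43% of all genes called. Adipocyte markers also moved between E18.5 and PN2, where 7 of 7 were higher with a median log2 change of 4.95. Cfd (adipsin) was called, against 0.0296% of all genes, and 6 of the 7 were called with library size alone, against 1.43%. Adipoq (adiponectin) had 1.06 FPKM at E18.5, 21.99 at PN2, 4.03 and 2.82 at PN14, 17.47 at PN28 and 12.83 in adult muscle, so that it was high in later libraries in which Angptl4 was low. The 7 markers summed to 152 to 503 TMM-scaled CPM, and Fabp4 made up most of the sum in every library. It was 150 of the 152 at E18.5 and 352 of the 503 at PN28, so the sum says little of the other markers. Lep (leptin) was at 0 FPKM at E18.5. The parts of the adipocyte signal and of the Schwann cell signal of PN14 replicate 2 in these values were not tested.

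**Figure D4:**
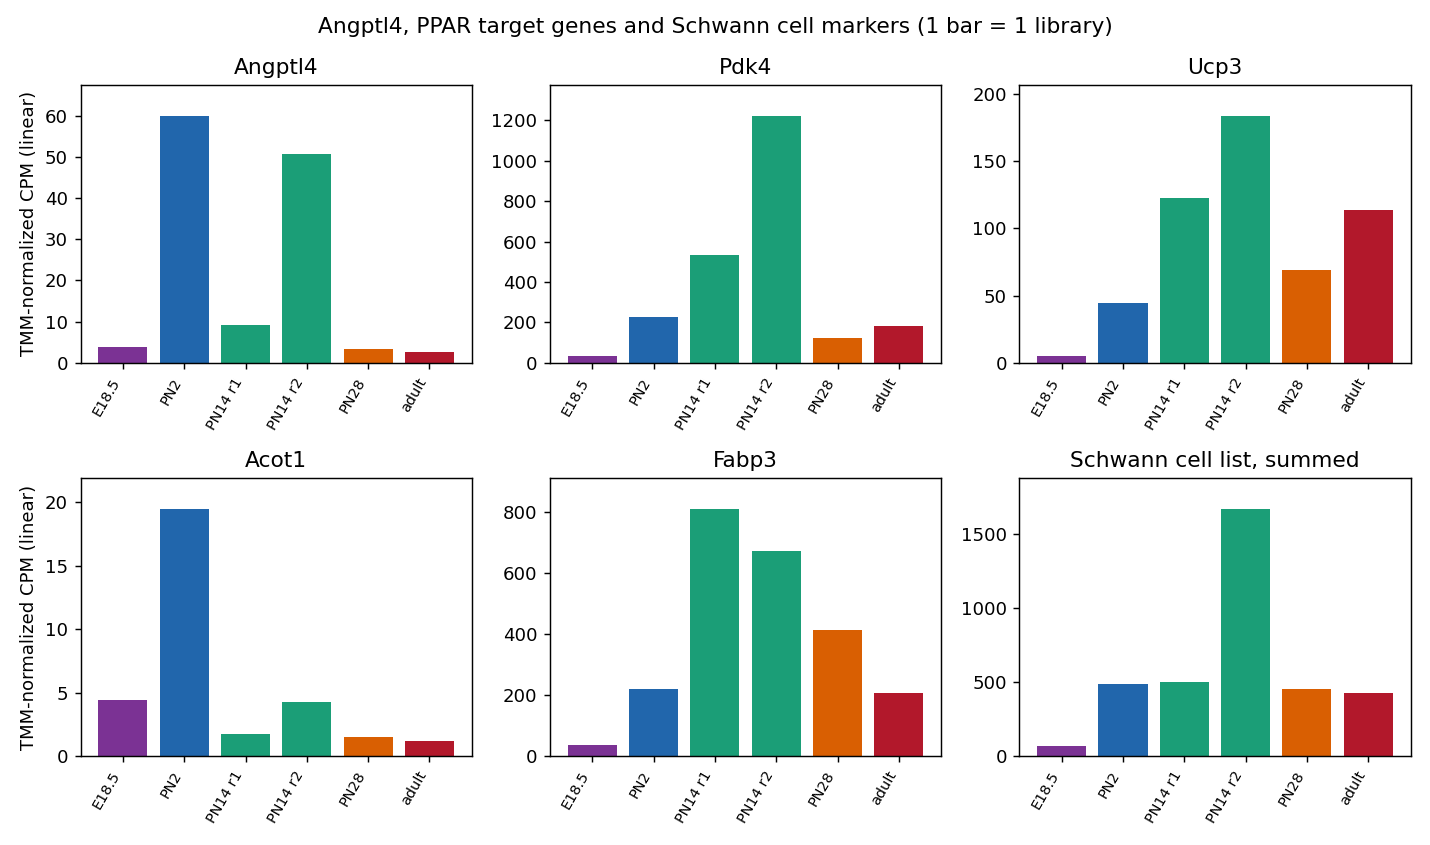
TMM-scaled CPM (y, linear) of Angptl4, 4 genes induced by PPARs and the sum of 4 Schwann cell markers, with 1 bar per library (x). Angptl4 in PN14 replicate 2 reached 84.6% of its PN2 level and in replicate 1 15.4%, and Pdk4, Ucp3 and the Schwann cell sum were highest in replicate 2.

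The RNA of the enzyme that Angptl4 inhibits was not lowest where Angptl4 RNA was highest. The amount and activity of the enzyme were not measured. Lpl, lipoprotein lipase, had 57.68 FPKM at E18.5, 104.85 at PN2, 79.59 and 90.80 at PN14, 102.13 at PN28 and 97.63 in adult muscle. It rose by 1.78 from E18.5 to adult (SE 0.34, adjusted p = 0.00739, edgeR). Gpihbp1, which carries the lipase to the capillary surface, rose by 1.21 from PN2 to PN14 (SE 0.19, adjusted p = 0.0101, edgeR), from 47.30 FPKM to 58.95 and 81.05. Neither call was made with library size alone. Angptl8 (listed as Gm6484) ranged from 0.08 to 0.37 FPKM.

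Other angiopoietin-like genes differed widely. Angptl7 rose from 1.51 FPKM at E18.5 to 32.83 in the adult (log2 5.47, SE 1.01, adjusted p = 0.00661, edgeR), although the PN14 pair stood at 15.59 and 4.53 FPKM. Angptl1 fell by 2.51 (SE 0.27, adjusted p = 0.00166, edgeR), from 50.34 to 4.35 FPKM. Both were called with library size alone as well.

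The gp130 cytokines Lif and Il6 were scarce and highest around birth. Lif had 0.49 FPKM at E18.5, 0.59 at PN2, 0.14 and 0.24 at PN14, 0.09 at PN28 and 0.10 in adult muscle, from 356 fragments at PN2 to 50 at PN28. The 2 perinatal libraries were above all 4 later ones. Lif fell by 1.22 between perinatal and later libraries (SE 0.35, adjusted p = 0.0307, edgeR) and by 1.86 from PN2 to PN28 (SE 0.51, adjusted p = 0.0378, edgeR). Both calls were also made with library size alone, and DESeq2's Wald test did not make the second. Without E18.5, PN2, PN14 replicate 1 or PN28 the call between perinatal and later libraries was lost. Il6 had 14 fragments at E18.5, 19 at PN2, 1 and 3 at PN14, 2 at PN28 and 5 in adult muscle. It was not called by the quasi-likelihood test under TMM, where its change between perinatal and later libraries was -1.60 (SE 0.60, adjusted p = 0.0683, edgeR). Without the adult library it was called (-2.13). The exact test of edgeR called a fall from PN2 to PN14 and from perinatal to later, and library size alone called both and the fall from PN2 to PN28.

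Their receptors were far more abundant. Il6st, which encodes gp130, ranged from 18.99 to 33.71 FPKM and Lifr from 5.45 to 8.88 FPKM, and neither was called under TMM. Il6ra ranged from 0.70 to 1.28 FPKM and rose by 1.28 from E18.5 to adult (SE 0.32, adjusted p = 0.0184, edgeR), a call absent with library size alone. Other cytokines of the family moved in both directions. Cntf, the ciliary neurotrophic factor made by Schwann cells, rose by 3.31 from PN2 to PN14 (SE 0.45, adjusted p = 0.00726, edgeR), from 0.70 FPKM to 2.98 and 6.04. It reached 5.14 FPKM in the adult. Ctf1 (cardiotrophin-1) rose by 1.62 (SE 0.34, adjusted p = 0.0193, edgeR), from 3.68 FPKM to 7.99 and 6.16, and only Cntf kept its call with library size alone. Osm (oncostatin M) fell by 2.59 from E18.5 to adult (SE 0.80, adjusted p = 0.0368, edgeR), from 0.19 to 0.02 FPKM. It had 55 fragments at E18.5 and 4 in the adult, just over the floor of 3 counts. Clcf1 fell by 1.72 over the same span (SE 0.59, adjusted p = 0.0499, edgeR), from 1.11 to 0.17 FPKM.

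Of 13 immediate early and STAT3 target genes, which gp130 signalling and exercise induce, 2 rose and 6 fell from E18.5 to adult, with a median log2 change of -0.47 against -0.05 over all genes, of which 44.9% were called. With library size alone 1 rose and 8 fell, against 53.6% of all genes called. Fosb fell by 2.59, Myc by 2.28 and Socs3, the feedback inhibitor of gp130 signalling, by 1.90, while Nr4a1 rose by 2.91. Nr4a1 also varied widely within a stage, with 69.42 and 19.12 FPKM in the PN14 pair. Socs3 had 7.50 FPKM at E18.5, 7.71 at PN2, 1.81 and 4.51 at PN14, 2.97 at PN28 and 0.98 in adult muscle. From PN2 to PN14 0 of 13 were called by edgeR's quasi-likelihood test, against 23.0% of all genes. With library size alone 1 rose and 3 fell in that interval, against 34.5%.

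Fndc5 and Metrnl were called in no comparison by edgeR's quasi-likelihood test under TMM with the filter on low counts, and with library size alone they fell by 1.78 and 1.17 from E18.5 to adult. Fndc5 had 44.69 FPKM at E18.5, 36.13 at PN2, 35.01 and 38.00 at PN14, 30.02 at PN28 and 13.02 in adult muscle. The adult was the lowest library, and the value from PN28 to adult was -1.07 (SE 0.22, adjusted p = 0.0922, edgeR). The Wald test of DESeq2, the exact test of edgeR, library size alone and the fit with no filter each called that fall. From PN2 to PN14 the value was 0.67 under TMM and 0.02 with library size alone. The related Fndc4 was plainer. It had 15.03 FPKM at E18.5, 12.52 at PN2, 1.89 and 2.44 at PN14, 1.67 at PN28 and 0.83 in adult muscle, and fell by 1.88 from PN2 to PN14 (SE 0.20, adjusted p = 0.00479, edgeR).

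Metrnl had 4.84 FPKM at E18.5, 5.37 at PN2, 4.70 and 7.37 at PN14, 3.63 at PN28 and 2.14 in adult muscle. The adult was the lowest and PN14 replicate 2 the highest library, and the largest step under TMM was 0.80 from PN2 to PN14 (SE 0.25, adjusted p = 0.0539, edgeR). Its paralog Metrn ranged from 20.81 to 27.73 FPKM and rose by 1.34 from E18.5 to adult under TMM (SE 0.20, adjusted p = 0.00336, edgeR), but was not called with library size alone. Kit, described as a receptor of meteorin-like, fell by 1.99 from E18.5 to adult (SE 0.40, adjusted p = 0.00888, edgeR), from 4.98 to 0.62 FPKM. The integrin genes Itgav and Itgb5, whose products bind irisin, had 5.35 and 38.34 FPKM in the adult. Itgb5 rose by 1.19 from E18.5 to adult (SE 0.24, adjusted p = 0.00880, edgeR), which library size alone did not call.

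Fgf21 was barely detected, with 26 fragments at E18.5, 10 at PN2, 8 and 15 at PN14, 3 at PN28 and 3 in adult muscle. No change was called under TMM, and library size alone called a fall of 2.92 from E18.5 to adult. At this depth a change among the later stages was not detectable. Its co-receptor Klb had 0.57 FPKM at PN2 and 0.03 to 0.12 in the other libraries, and fell by 2.71 from PN2 to PN14 (SE 0.62, adjusted p = 0.0246, edgeR). Fgfr1 ranged from 15.04 to 36.06 FPKM and was not called under TMM. Genes of the ATF4 stress response, whose element the Fgf21 window carries, did not move one way. Of 8 targets 2 rose and 3 fell from PN2 to PN14, with a median log2 change of 0.77 against -0.01 over all genes, of which 23.0% were called. Chac1, which degrades glutathione, rose by 6.16 (SE 0.29, adjusted p = 0.00223, edgeR), from 0.31 FPKM to 14.11 and 13.60, and reached 50.85 FPKM in the adult. Asns, asparagine synthetase, fell by 4.08 (SE 0.22, adjusted p = 0.00228, edgeR), from 26.08 FPKM to 1.01 and 0.94. Phgdh and Psat1 of serine synthesis fell by 1.89 and 1.66. Ddit3, named after its value was seen, rose by 1.48. The calls of Chac1, Asns, Phgdh and Psat1 were also made with library size alone.

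Across the receptor genes of these factors 3 of 17 rose and 1 fell from PN2 to PN14, and 4 rose and 2 fell from E18.5 to adult, with medians of 0.15 and 0.20 on the log2 scale. These shares were near the 23.0% and under the 44.9% of all genes called. With library size alone the counts were 1 risen and 2 fallen, and 1 risen and 7 fallen, against 34.5% and 53.6% of all genes. Of 20 tested ligands related to the members, 6 rose and 8 fell from E18.5 to adult, against 44.9% of all genes called (2 and 10 with library size alone, against 53.6%). Of 12 regulators of these genes 4 rose and 1 fell over the same span, near the 44.9% of all genes. With library size alone the counts were 2 and 4, against 53.6%. Epas1, the hypoxia-inducible factor of endothelium and muscle, rose by 2.32 (SE 0.25, adjusted p = 0.00175, edgeR) and Hif1a fell by 1.08 (SE 0.23, adjusted p = 0.0105, edgeR), and both kept their calls under either scaling. Ppargc1a, the PGC-1 alpha gene that induces Fndc5 in exercised muscle, rose by 1.50 (SE 0.20, adjusted p = 0.00264, edgeR) only under TMM, from 4.37 to 6.07 FPKM.

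Of 17 tested genes for other muscle-secreted factors, 1 rose and 3 fell from E18.5 to adult, and 1 and 6 with library size alone, against 44.9% and 53.6% of all genes. Nampt, the enzyme of NAD synthesis that is also released, rose by 2.60 (SE 0.30, adjusted p = 0.00192, edgeR), from 10.89 to 32.37 FPKM. Fstl1 (follistatin-like 1) fell by 3.45 (SE 0.49, adjusted p = 0.00290, edgeR), from 406.03 to 18.28 FPKM, and Sparc, a matrix protein, by 2.13 (SE 0.59, adjusted p = 0.0257, edgeR). The chemokine gene Ccl2 fell by 2.09 (SE 0.65, adjusted p = 0.0370, edgeR). Of 6 fibroblast markers, 5 fell over the same span and Dcn (decorin) did not, going from 497 to 832 TMM-scaled CPM. The 6 summed to 16496 TMM-scaled CPM at E18.5 and 1554 in the adult, none was at 0, and their part was not tested.

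The order of the levels also differed between members, with neighbours compared against the PN14 pair on the TMM scale. For Il15 each step from PN2 to PN14, PN28 and adult was larger than the difference within the pair, and E18.5 and PN2 did not differ beyond it. That Il15 step from PN2 to PN14 (0.59, SE 0.32) was not called, and with library size alone it was -0.071. For Vegfb and Ostn all neighbouring stages differed by more than their PN14 pairs, which were close (0.08 and 0.07 on the log2 scale). Both pairs were closer than the median gene (0.186), so small steps passed. Vegfb from PN14 to PN28 (0.12, SE 0.18) and Ostn from PN2 to PN28 (-0.13, SE 0.23) were smaller than their standard errors, so their order is not settled. For Apln only the adult stood beyond the pair's 0.82, and for Angptl4 only the gap between E18.5 and PN14 exceeded its 2.45. For Metrnl only PN28 and PN14 differed by more than the pair, and for Fndc5 PN28 and PN14 alone did not. For Lif, E18.5 and PN2 did not differ beyond the pair, nor did PN28 and adult. Il6 and Fgf21 had too few fragments for an order.

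The genes whose pattern over the 6 libraries was most like a called member were found by Pearson's r on log2 CPM among 13015 genes. With 6 points that share libraries and scaling, high values are common, and they are a description only. Ostn was most like Lyar (r = 0.998), Vegfb like Wbscr22 (r = 0.999), Il15 like Faf1 (r = 0.9997) and Apln like Leprot (r = 0.998). Angptl4 was most like Ptpre (r = 0.989) and then Gjc3 (r = 0.982), which encodes a connexin of myelinating glia.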

How the data were processed

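PolyA RNA of gastrocnemius muscle was sequenced in 6 libraries, grouped by the age in the labels. The authors aligned paired reads to mm9 with TopHat2 2.0.5 and used RSEM to assign fragments to RefSeq gene models (RSEM version not given in the sources used here). The deposited expected counts are whole numbers, and the FPKM values of the authors carry no scaling between libraries beyond depth. Library strandedness is not given in the sources used here. Positions are from the GENCODE M1 annotation of mm9.

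Counts were tested with edgeR 4.0.16 (R 4.3.3): TMM scaling, filterByExpr, and quasi-likelihood tests over all 16882 genes with the 5 stages as groups, so that the PN14 pair alone gives the residual spread, with 1 degree of freedom. A fit of perinatal against later libraries used 16373 genes. A call needs a Benjamini-Hochberg adjusted p under 0.05 and a log2 change of at least 1. The PN14 libraries are biological replicates, and no other stage has any. Both fits were run on simulated counts that had the same spread in every library. This could not test whether the PN14 spread holds at the other stages. Alternatives were library size alone, DESeq2 size factors, DESeq2 1.42.0, edgeR's exact test, other filters and leaving out libraries. Promoter motifs were searched with Python 3.11.15. Floors cover counting error only. Standard errors come from the quasi-likelihood fits and also hold the spread between libraries of a group. All 10 members are named, with the receptor and lipase genes (1 listed gene is not reported here), and for each other list its members of the same family or known regulators and up to 4 called genes of largest change. For likeness, the gene nearest by r is given, of 3 computed per called member, at 0.5 CPM added. Members and lists were chosen with earlier results of these data known.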

Additional observations from a re-analysis of the deposited data

How the results depend on the processing

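The PN28 to adult and E18.5 to adult rises of Ostn were called under every scaling, filter and test tried. So were the falls of Apln from E18.5 to adult and from PN2 to PN28. The fall of Lif between perinatal and later libraries was as well, but some fits that left out 1 library lost it. Scaling decided most else. With library size alone 1, 5, 1, 3 and 7 members were called from E18.5 to PN2, PN2 to PN14, PN14 to PN28, PN28 to adult and E18.5 to adult. Signs turned for Il15 from PN2 to PN14 (-0.071), Vegfb from PN14 to PN28 (-0.11), Metrnl and Fndc5 from PN2 to PN28 (-0.56 and -0.27) and from perinatal to later (-0.19 and -0.48). Over all genes it called 5825 from PN2 to PN14 (854 rose, 4971 fell) against 3884 (1988 rose, 1896 fell), 7151 against 4566 from PN2 to PN28 (852 rose against 2415), and 9047 against 7584 from E18.5 to adult (1347 rose against 3606). From perinatal to later 945 of 7087 rose against 2541 of 5100. DESeq2's Wald test called 3 members from PN28 to adult and 2 from PN2 to PN28. edgeR's exact test called 1, 2 and 3 members from E18.5 to PN2, PN2 to PN14 and PN28 to adult, and 4 from perinatal to later. Without a filter 3 were called from PN28 to adult. Over all genes, library size, DESeq2, the exact test and no filter called 241, 165, 346 and 97 from E18.5 to PN2 against 5, 262, 135, 241 and 56 from PN14 to PN28 against 3, and 868, 808, 1146 and 835 from PN28 to adult against 88, where a mean of at least 1 CPM left 13. Leaving out a library gave 1 to 3 members from perinatal to later. It gave 1486 genes without E18.5 and 3207 without PN2 against 5100. There the log2 change ranged from -0.94 to 0.41 for Fgf21 (the highest without E18.5), from -2.66 to 2.09 for Angptl4 (the highest without PN2) and from -0.61 to 2.86 for Ostn (the lowest without the adult). Beyond the effect of the settings themselves, the cause was not tested. No paired analysis was possible, because only PN14 has replicates and each stage came from different animals. Depth limits Il6 and Fgf21, at 1 to 26 fragments.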
